A study of Chlamydomonas reinhardtii with 12 samples.

Results

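The genes described here are those of Chlamydomonas reinhardtii, a unicellular green alga, whose transcript levels were higher shortly after cultures were moved to the dark without oxygen and lower again some hours later. They were chosen by their measured values. A gene model was taken when its log2(RPKM + 1) at 0.5 h was above that of light oxic culture in each of 4 strains, by a mean of at least 1, and its value at 6 h was below that at 0.5 h in each strain, by a mean of at least 1. RPKM is a read count scaled to model length and library depth. Of 17301 gene models in the table, 14306 had a mean of at least 1 RPKM, and 144 of these met the rule. The rising step alone was met by 495 models, 3.46% of those tested, the falling step alone by 684 (4.78%), and both by 1.01%. The 144 members were thus 29.1% of the early risers and 21.1% of the models that fell after 0.5 h. The same thresholds with both signs turned, a transient fall, were met by 147 models. No model that met both mean thresholds was lost to the condition on every strain.

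Illumina RNA sequencing was made of 12 samples, 1 for each of 4 strains at each of 3 stages. CC-124 is the wild type and crr1 a mutant in the CRR1 gene. The other 2 strains, crr1:CRR1 and crr1dCys, are rescues of this mutant, with the full-length and the altered form of CRR1. All were grown in acetate medium in the light, and aliquots were either put back under growth conditions (light oxic) or sealed in bottles and stirred in the dark for 0.5 h or 6 h (dark anoxic). Light and oxygen were withdrawn together, so their parts in a response cannot be told apart. How the mutant lesion and the transgenes were made, and whether a strain is 1 clone, is not given in the labels. The strain crr1 could not be checked by its CRR1 transcript, because the identifiers carry no gene names. Depth per column, estimated from the spacing of low values, was 12001000 to 18894000 reads. 8 samples had 2 columns, which were averaged, and 4 had 1. In crr1:CRR1, the 6 h column of the series marked TS4 stood apart from its TS1 repeat and was left out by the rule. With no replicate culture in the labels, the SD given is the spread over the 4 strains, and 3 of these share the crr1 background. In bulk cultures, fewer cells that hold a transcript and less of it per cell cannot be told apart.

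As background, algal cells sealed in the dark use up the oxygen around them by respiration, and this alga is known to turn to fermentation and to the making of hydrogen. CRR1 is a transcription factor known as its copper response regulator, which is also known to take part in the response to lack of oxygen, and crr1dCys is known as a form without the cysteine-rich end. A transcript level follows from synthesis and decay together, so a level that rises and falls again within hours can come from a change in either. No function is given below for any member, because neither the table nor the reference table pairs its identifier with a gene name. A RefSeq locus tag was found for 113 of the 144 members (78.5%), and 0 of the symbols there were more than a locus tag.

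The members reached a peak at 0.5 h, and most were back near their starting level at 6 h. Falls are given below as negative differences, 6 h minus 0.5 h. The mean level over strains had a median over members of 13.3 RPKM in light oxic culture (range 0.780 to 1445), 39.4 RPKM at 0.5 h (3.64 to 3133) and 15.5 RPKM at 6 h (0.499 to 1619). Over all models tested the medians were 6.55, 6.54 and 6.50 RPKM. At 0.5 h, 39 members had a mean of at least 100 RPKM, against 19 in light oxic culture and 21 at 6 h. The mean 0.5 h response had a median of 1.38 log2 units (quartiles 1.15 and 1.81), and 28 members rose by a mean of 2 or more. The mean fall from 0.5 h to 6 h had a median of -1.35, and 17 members fell by 2 or more. Medians over all models tested were 0.02 and -0.04. These values chose the members and carry no test. The 0.5 h samples enter both steps, so a value that was high by error at 0.5 h would enlarge both.

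**Figure D1:**
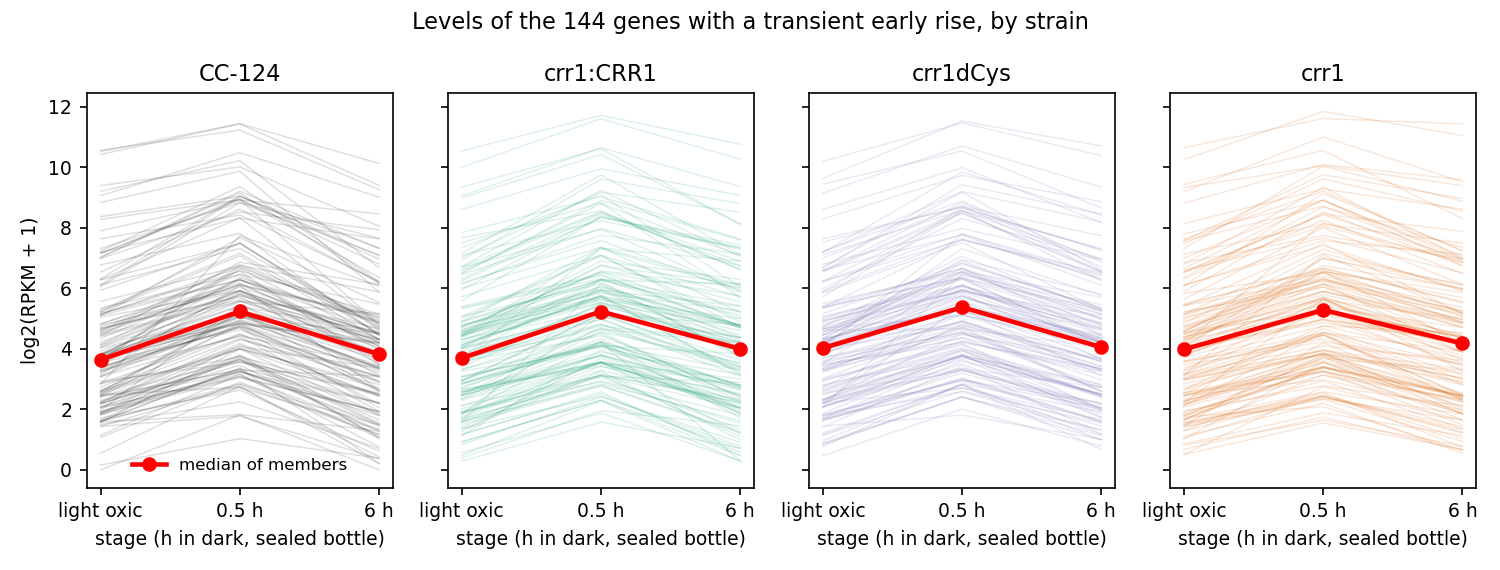
Each thin line is 1 of the 144 members in 1 strain, with the stage on the x axis and log2(RPKM + 1) on the y axis, and the red line joins the medians of the members. In all 4 strains the median peaks at 0.5 h, and the starting levels of the members spread from under 1 RPKM to over 1000 RPKM.

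The levels of the 4 strains at 0.5 h all lay above the 4 light oxic levels in 127 members, a pattern found in 14.1% of all models tested. They all lay above the 4 levels at 6 h in 122 members (12.3% of all models) and above both in 115 (4.43%). Since the rule sets the direction within each strain, these counts describe how far the strains differed in level and support nothing further. The SD of the response over the 4 strains had a median of 0.23 log2 units for the rise and 0.36 for the fall, against 0.21 and 0.28 over all models tested. The fall was thus the step in which the strains spread more.

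The member with the largest mean rise was Cre09.g391650.t1.1. In the order CC-124, crr1:CRR1, crr1dCys and crr1, which is kept below, its level was 6.10, 2.00, 3.22 and 7.69 RPKM in light oxic culture, 213, 70.5, 87.4 and 138 RPKM at 0.5 h, and 66.4, 19.8, 42.9 and 35.0 RPKM at 6 h. It rose by 4.46 ± 0.35 log2 units (mean ± SD, n = 4), and its 6 h minus 0.5 h difference was -1.59 ± 0.41, so that each strain kept a level at 6 h well above its light oxic level. Cre09.g409650.t1.1 came next, with 11.4, 11.9, 15.5 and 16.6 RPKM in light oxic culture, 107, 159, 222 and 288 RPKM at 0.5 h, and 58.1, 119, 76.9 and 114 RPKM at 6 h. Its light oxic levels lay below all others, but the 6 h levels of crr1:CRR1 and crr1 exceeded the 0.5 h level of CC-124. Its rise was 3.63 ± 0.39 log2 units and its fall -1.03 ± 0.52.

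The next members by rise were of lower or higher level and of a like course. Cre03.g207600.t1.1 had 3.70, 2.61, 3.62 and 3.63 RPKM in light oxic culture, 18.8, 33.6, 42.0 and 48.9 RPKM at 0.5 h, and 7.60, 11.4, 15.1 and 13.8 RPKM at 6 h, a rise of 3.00 ± 0.62 log2 units that was smallest in CC-124. Cre12.g541400.t1.1 had 12.5, 21.0, 16.5 and 15.6 RPKM in light oxic culture, 81.1, 158, 158 and 126 RPKM at 0.5 h, and 28.0, 62.1, 53.1 and 69.3 RPKM at 6 h, a rise of 2.91 ± 0.25. In both, the 0.5 h levels of the 4 strains lay above every level of the other stages. Cre03.g155250.t1.1 had 2.90, 11.9, 10.4 and 19.3 RPKM in light oxic culture, 43.6, 76.6, 86.3 and 92.7 RPKM at 0.5 h, and 7.75, 69.7, 34.3 and 57.5 RPKM at 6 h. Between 0.5 h and 6 h it changed by -2.35 log2 units in CC-124 and by -0.09 in crr1:CRR1, with a mean of -1.12 ± 0.96 (n = 4).

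Cre01.g056250.t1.1, at 69.6 ± 13.3 RPKM in light oxic culture, 475 ± 66.2 RPKM at 0.5 h and 159 ± 24.2 RPKM at 6 h (mean ± SD, n = 4), rose by 2.78 ± 0.26 log2 units, and its 3 sets of levels did not overlap. Cre02.g105100.t1.1, at 126 ± 34.7 RPKM in light oxic culture, 821 ± 219.7 RPKM at 0.5 h and 345 ± 158 RPKM at 6 h (n = 4), had the same rise in every strain, 2.70 ± 0.05 log2 units, while its 6 h level was 124, 445, 342 and 471 RPKM. Cre16.g687350.t1.1 stood at 20.7 ± 6.93 RPKM in light oxic culture, 119.9 ± 16.9 RPKM at 0.5 h and 50.4 ± 27.0 RPKM at 6 h (n = 4). Cre13.g603500.t1.1, at 74.6 ± 44.6 RPKM in light oxic culture, 389.6 ± 66.1 RPKM at 0.5 h and 188 ± 113 RPKM at 6 h (n = 4), had its highest light oxic level, 141 RPKM, in CC-124, against 47.1 to 58.4 RPKM in the other strains. The last of the 10 members with the largest rise, Cre05.g237450.t1.1, had 128, 104, 103 and 110.3 RPKM in light oxic culture, 570.1, 604, 581 and 650.1 RPKM at 0.5 h, and 70.5, 132, 96.9 and 127 RPKM at 6 h. Its rise of 2.42 ± 0.19 and its fall of -2.52 ± 0.36 were of like size, and its 6 h level lay above its light oxic level in crr1:CRR1 and crr1 and below it in CC-124 and crr1dCys. It was the only member among both the 10 largest rises and the 5 deepest falls.

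**Figure D2:**
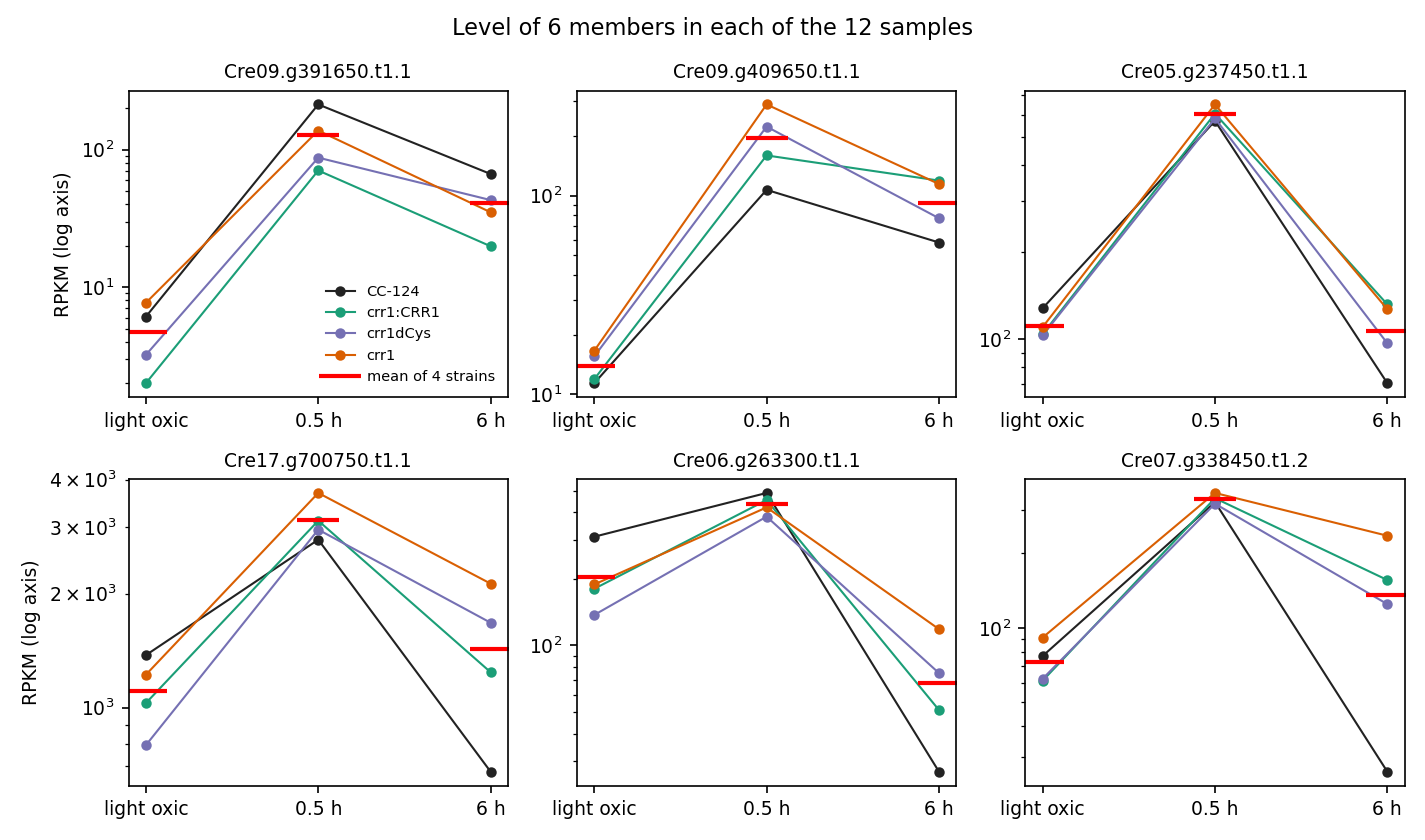
RPKM on a log axis in each of the 12 samples for 6 members chosen after their values were seen, with 1 line per strain, the stages on the x axis and the mean of the 4 strains as a red bar. At 6 h, Cre09.g391650.t1.1 and Cre09.g409650.t1.1 stay above their light oxic level in each strain, Cre06.g263300.t1.1 ends below it, and Cre07.g338450.t1.2 is at 26.3 RPKM in CC-124 and at 125 to 235 RPKM in the other strains.

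The deepest mean fall was that of Cre06.g263300.t1.1. Its level was 310.0, 180.4, 137 and 189 RPKM in light oxic culture, 489, 454, 382 and 421 RPKM at 0.5 h, and 26.9, 51.1, 75 and 118 RPKM at 6 h. All 0.5 h levels lay above those of light oxic culture, with a rise of 1.15 ± 0.36 log2 units, and all 6 h levels lay below them, with a fall of -2.86 ± 1.01. Cre01.g032650.t1.1 also ended below where it began in each strain, at 457, 161, 127 and 196 RPKM in light oxic culture, 936, 544, 425 and 593 RPKM at 0.5 h, and 57.9, 65.2, 93.1 and 150.4 RPKM at 6 h. Its fall of -2.80 ± 0.92 log2 units was deepest in CC-124 and shallowest in crr1, as was that of Cre06.g263300.t1.1. Cre02.g129550.t1.1 stood at 35.9 ± 4.48 RPKM in light oxic culture, 151 ± 33.7 RPKM at 0.5 h and 31.0 ± 7.95 RPKM at 6 h (n = 4), with a fall of -2.29 ± 0.64. Cre07.g321800.t1.1 was a low transcript at 2.04, 5.68, 1.73 and 2.37 RPKM in light oxic culture, 9.28, 17.6, 2.51 and 3.25 RPKM at 0.5 h, and 0.166, 0.236, 1.02 and 0.575 RPKM at 6 h. Its rise was 1.76 and 1.71 log2 units in CC-124 and crr1:CRR1 and 0.35 and 0.37 in crr1dCys and crr1, but the crr1:CRR1 columns differed, with 2.84 in TS1 and 0.58 in TS4. With the TS4 columns alone for crr1:CRR1 its mean rise would be 0.76, below the threshold. The difference of crr1 from CC-124 and crr1:CRR1 in its 0.5 h response did not pass the test across all models, at -1.37 log2 units (SE 0.41, limma adjusted p = 0.994).

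5 members had a mean of at least 1000 RPKM at 0.5 h. Cre17.g700750.t1.1, the highest, had 1375, 1027, 795 and 1221 RPKM in light oxic culture, 2776, 3116, 2951 and 3689 RPKM at 0.5 h, and 677, 1239, 1675 and 2124 RPKM at 6 h. Its levels at 0.5 h lay above all others, and its 6 h level was lowest in CC-124 and highest in crr1. Cre06.g282800.t1.1 had 1511, 1489, 1174 and 1607 RPKM in light oxic culture, 2405, 3369.7, 2834 and 3133 RPKM at 0.5 h, and 614, 1741, 1339 and 2781 RPKM at 6 h. There the crr1 level at 6 h exceeded the 0.5 h level of CC-124, so the stages overlapped between strains. Cre16.g659700.t1.1 had 1474, 649, 696 and 693 RPKM in light oxic culture, 2786, 1569, 1486 and 1508 RPKM at 0.5 h, and 1120.2, 278, 402 and 315 RPKM at 6 h. CC-124 held the highest level of the 4 strains at each stage.

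Cre10.g452350.t1.1 stood at 556 ± 27.0 RPKM in light oxic culture, 1690.4 ± 263 RPKM at 0.5 h and 641 ± 90.5 RPKM at 6 h (n = 4), with a rise of 1.60 ± 0.16 and a fall of -1.40 ± 0.10 log2 units. Cre07.g353450.t1.1 rose from 533 ± 111 RPKM to 1160.3 ± 159.8 RPKM (n = 4) and had 102, 279, 289 and 673 RPKM at 6 h. Its 6 h level in crr1 was thus above its light oxic level there, while the other strains ended below theirs. Cre02.g141400.t1.1 stood at 457 ± 155 RPKM in light oxic culture, 992 ± 103 RPKM at 0.5 h and 509.7 ± 209 RPKM at 6 h (n = 4) and Cre17.g702900.t1.1 at 146 ± 36.6 RPKM in light oxic culture, 769 ± 111 RPKM at 0.5 h and 266 ± 196 RPKM at 6 h (n = 4). The latter had 73.5 RPKM at 6 h in CC-124 and 501 RPKM in crr1. Cre12.g521300.t1.1 stood at 130.1 ± 45.4 RPKM in light oxic culture, 619 ± 114 RPKM at 0.5 h and 299 ± 100.1 RPKM at 6 h (n = 4), and 6 h levels above its light oxic levels were found in each strain.

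The edge of the set was not a gap in the values. Nearest inside the threshold on the rise were Cre16.g683450.t1.1 with a mean rise of 1.005 log2 units, Cre13.g598800.t1.1 with 1.018 and Cre10.g447850.t1.1 with 1.021. Nearest outside were Cre10.g451100.t1.2 with 0.990, Cre16.g678850.t1.2 with 0.983 and Cre03.g149100.t1.1 with 0.976. On the fall, Cre16.g676450.t1.1 (-1.0003), Cre04.g224150.t1.1 (-1.0019) and Cre09.g403550.t1.1 (-1.0080) lay just inside. Cre03.g177450.t1.2 (-0.9963, with a rise of 2.41), Cre13.g562550.t1.2 (-0.9959) and Cre16.g672550.t1.2 (-0.9832) lay just outside.

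What was left of the rise at 6 h differed among the members. The difference between 6 h and light oxic culture is the sum of the 2 steps of the rule and is given without a test. Its mean over strains had a median of 0.05 log2 units (quartiles -0.31 and 0.40) and lay within 1 log2 unit of 0 in 124 members, within 0.5 in 86. Most of all models tested lay within 1 log2 unit as well, with 5.12% at 1 or higher and 7.17% at -1 or lower. In the median member 96.0% of the rise was lost by 6 h, with a range from 28.4% to 248%. The 6 h level was above the light oxic level in each strain in 41 members (28.5%, against 26.3% of all models tested) and below it in each strain in 32 (22.2%, against 33.6%). In the remaining 71 the strains differed in sign. The mean was above 0 in 79 members, as it was in 46.6% of all models.

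15 members stood at least 1 log2 unit higher at 6 h than in light oxic culture, 10.4% against 5.12% of all models tested. After Cre09.g391650.t1.1 and Cre09.g409650.t1.1, the differences were largest in Cre03.g155250.t1.1 (1.69 ± 0.55), Cre12.g541400.t1.1 (1.58 ± 0.42) and Cre03.g207600.t1.1 (1.53 ± 0.44). 5 members stood at least 1 log2 unit lower, 3.47% against 7.17% of all models, and these were Cre06.g263300.t1.1 (-1.70 ± 1.28), Cre07.g321800.t1.1 (-1.27 ± 0.71), Cre01.g032650.t1.1 (-1.27 ± 1.2), Cre10.g465550.t1.2 (-1.09 ± 0.24) and Cre14.g630800.t1.2 (-1.06 ± 0.23). The members that had risen more also stood higher at 6 h. Of the 28 with a rise of 2 or more, 26 had a mean difference above 0, and of the 83 with a rise under 1.5, 27 did. The requirement of a fall of at least 1 allows any larger rise to remain in part, so this order is partly set by the rule. Both values also subtract the same light oxic level, so a low light oxic value raises both. The same counts were not made over other models, and the order is given as a description only.

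**Figure D3:**
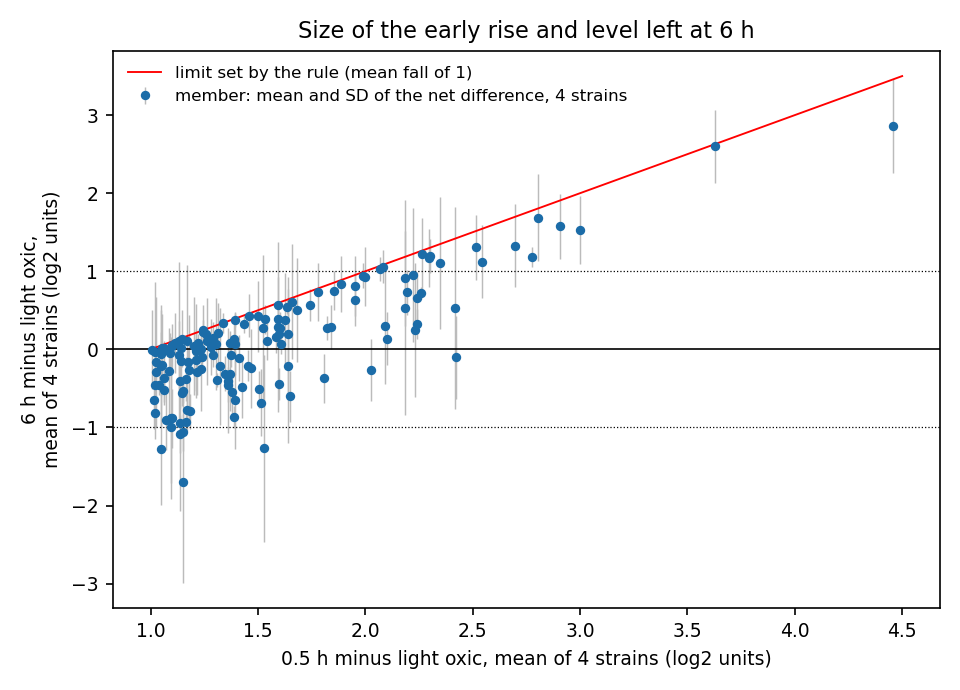
Mean 0.5 h response of each of the 144 members (x axis, log2 units) against its mean difference between 6 h and light oxic culture (y axis, log2 units), with bars for the SD over 4 strains and a red line for the limit that the rule sets. 15 members lie at 1 or higher and 5 at -1 or lower, and Cre09.g391650.t1.1 is the point farthest to the right.

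The median rise of the members differed less between the strains than their median fall. The median rise of the members was 1.49 log2 units in CC-124, 1.43 in crr1:CRR1, 1.45 in crr1dCys and 1.30 in crr1. The median over all models tested was 0.04, 0.04, 0.04 and -0.11. The median fall was -1.68, -1.37, -1.38 and -1.17, against -0.01, -0.08, -0.15 and 0.10 over all models. CC-124 had the deepest fall of the 4 strains in 79 members (54.9%), while it had the deepest 6 h minus 0.5 h value in 26.1% of all models tested. These falls chose the members, and a deep fall in CC-124 helps a model to meet the rule: with the rule applied to the other 3 strains alone, CC-124 had the deepest fall in 46 of 124 models (37.1%). For crr1:CRR1 the deepest fall was found in 28 members (19.4%, against 28% of all models), for crr1dCys 22 (15.3%, against 36.6%) and for crr1 15 (10.4%, against 9.32%).

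As a summed level, the members took 10858, 8405, 7725 and 9493 RPKM in light oxic culture, 26132, 25627, 24442 and 27553 RPKM at 0.5 h, and 7171, 9816, 9647 and 13471 RPKM at 6 h. Their share of all RPKM was 1.41%, 0.999%, 0.934% and 1.12% in light oxic culture, 3.46%, 3.19%, 2.93% and 3.25% at 0.5 h, and 0.974%, 1.17%, 1.03% and 1.60% at 6 h. CC-124 thus started with the largest summed level and ended with the smallest, and crr1 ended with the largest. A sum is weighted to the members of high level. The median level of the members was 11.445, 11.958, 15.312 and 14.816 RPKM in light oxic culture, where CC-124 was thus lowest. At 6 h the median was 13.138, 15.024, 15.644 and 17.107 RPKM, again lowest in CC-124 and highest in crr1. The 6 h level was below the light oxic level in 80 members in CC-124 (55.6%, against 47.7% of all models), in 64 in crr1:CRR1 (44.4%, against 54.6%), in 67 in crr1dCys (46.5%, against 61.1%) and in 52 in crr1 (36.1%, against 50.9%).

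The falls that chose the members also enter the values at 6 h, which are given as a description. At 6 h, 25 members were at least 1 log2 unit below light oxic culture in CC-124 (17.4%, against 8.04% of all models), 9 in crr1:CRR1 (6.25%, against 11.4%), 2 in crr1dCys (1.39%, against 6.77%) and 3 in crr1 (2.08%, against 7.22%).

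Differences between strains were tested with limma across all 14306 models, without regard to membership, with Benjamini-Hochberg adjustment and a threshold of 0.05. The rule used the light oxic level of a strain only within its rise, where it is subtracted. The rule also used the rise and the fall of every strain through their means. The members' shares for the light oxic level and for these 2 steps are therefore not independent of the rule and are given as a description. The members also had a higher light oxic level than all models tested, with medians of 13.3 and 6.55 RPKM. Shares at equal level were not compared. With the rule applied to the 3 crr1-derived strains alone, an alternative added after seeing the data, 124 models were chosen, and 103 of them were among the 144. The other 41 members met the rule only with CC-124 in the mean. CC-124 was set against the mean of the 3 crr1-derived strains, which gave the spread. It is 1 sample per stage, assumed to vary like them, and all its columns are of the series TS2, so strain, culture and series cannot be told apart. For the light oxic level, the spread was pooled over the 3 stages without a term for the single strain. Stages of 1 strain thus counted as replicates, and the p-values of that test may be too small. In light oxic culture 29 members differed, 20.1% against 12.3% of all models tested. 14 were higher in CC-124 (9.72%, against 5.63%) and 15 were lower (10.4%, against 6.67%). As over all models tested, the count of members was lower with the TS4 column kept, with TS2 columns alone, without crr1 and without crr1:CRR1. Among the 124 models chosen without CC-124 it was 25 (20.2%).

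The largest of these differences were in Cre13.g572600.t1.1 and Cre17.g716700.t1.2, in opposite directions. Cre13.g572600.t1.1 had 16.8, 1.40, 3.12 and 1.75 RPKM in light oxic culture, 76.7, 11.9, 12.9 and 17.5 RPKM at 0.5 h, and 29.3, 2.70, 5.66 and 4.03 RPKM at 6 h. CC-124 was far above the others at each stage, with a light oxic difference of 2.57 log2 units (SE 0.36, limma adjusted p = 0.00192), while every strain rose and fell and stood 0.72 ± 0.08 log2 units above light oxic culture at 6 h (n = 4). Cre18.g748700.t1.1 was another of this kind, with 5.01, 0.313, 0.711 and 0.426 RPKM in light oxic culture and 32.9, 2.89, 6.23 and 5.74 RPKM at 0.5 h. Its light oxic difference was 2.03 log2 units (SE 0.34, limma adjusted p = 0.00465). Cre17.g716700.t1.2 had 4.43, 20.9, 25.2 and 30.8 RPKM in light oxic culture, 8.84, 45.4, 60.3 and 75.3 RPKM at 0.5 h, and 7.56, 17.7, 24.4 and 29.9 RPKM at 6 h. CC-124 was lowest at each stage, and the light oxic difference was -2.26 log2 units (SE 0.33, limma adjusted p = 0.00214). Lower in CC-124 as well were Cre11.g469500.t1.2, with -1.89 log2 units (SE 0.33, limma adjusted p = 0.00603), and Cre03.g155250.t1.1, with -1.88 log2 units (SE 0.39, limma adjusted p = 0.0136).

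The 0.5 h response of CC-124 differed in 5 members, 3.47% against 1.46% of all models tested. 4 rose more in CC-124 (2.78%, against 1.34%) and 1 rose less (0.694%, against 0.126%). Among the 124 models chosen without CC-124, 2 differed (1.61%), close to the share of all models. Cre10.g447800.t1.1 had 7.95, 8.56, 23.5 and 10.7 RPKM in light oxic culture, 67.5, 16.2, 24.4 and 22.2 RPKM at 0.5 h, and 5.24, 13.3, 15.6 and 14.2 RPKM at 6 h. Its rise was 2.93 log2 units in CC-124 and 0.04 to 1.02 in the others, a difference of 2.30 log2 units (SE 0.41, limma adjusted p = 0.0303). Cre12.g561500.t1.1 had 33.3, 63.1, 73.6 and 96.5 RPKM in light oxic culture and 204, 162, 193 and 202 RPKM at 0.5 h. It started lowest in CC-124 and reached 162 to 204 RPKM in the 4 strains, so that the difference in response was 1.33 log2 units (SE 0.20, limma adjusted p = 0.0149). Cre01.g015950.t1.1, in contrast, started alike at 23.3, 26.5, 27.4 and 24.4 RPKM and reached 110.0, 56.4, 58.4 and 58.8 RPKM at 0.5 h. The difference was 1.07 log2 units (SE 0.21, limma adjusted p = 0.0457). In Cre02.g115508.t1.2 the difference was 1.51 log2 units (SE 0.29, limma adjusted p = 0.0380), with 1.94, 4.93, 3.77 and 4.49 RPKM in light oxic culture and 15, 12.9, 8.82 and 6.89 RPKM at 0.5 h. Cre03.g207600.t1.1, described above, was the member that rose less, with a difference of -1.23 log2 units (SE 0.21, limma adjusted p = 0.0242). With the TS4 column kept, and likewise without crr1, 0 members passed this limma test, with 20 and 27 at an unadjusted p under 0.05. Fewer members also passed without crr1:CRR1 and without crr1dCys. Over all models tested, the number that passed was higher without crr1:CRR1 and lower in the other settings named here.

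The fall from 0.5 h to 6 h differed in 16 members, 11.1% against 3.03% of all models tested. 15 fell more steeply in CC-124 (10.4%, against 2.3%) and 1 less steeply (0.694%, against 0.727%). The median difference over the members was -0.35 log2 units, against 0.04 over all models, and it was below 0 in 100 of the 144 (in 46.1% of all models). Among the 124 models chosen without CC-124, 8 differed (6.45%), 6 of them with the steeper fall in CC-124. The median difference there was -0.06, and it was below 0 in 66. In 31 of the 144 members the mean fall of the crr1-derived strains alone was smaller than 1 log2 unit, so that they met the rule through CC-124. The choice without CC-124 in turn favours models with large falls in the other strains, and neither set shows by itself whether CC-124 fell more steeply. Without an adjustment, 67 members had p under 0.05 (46.5%, against 17.7%). Without crr1, 0 members passed with limma (60 at an unadjusted p under 0.05) and 27 of all models did, and the median difference was -0.31 with 95 members below 0. Without crr1:CRR1 more members passed, and with the TS4 column kept fewer, and the number over all models tested moved the same way in both.

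**Figure D4:**
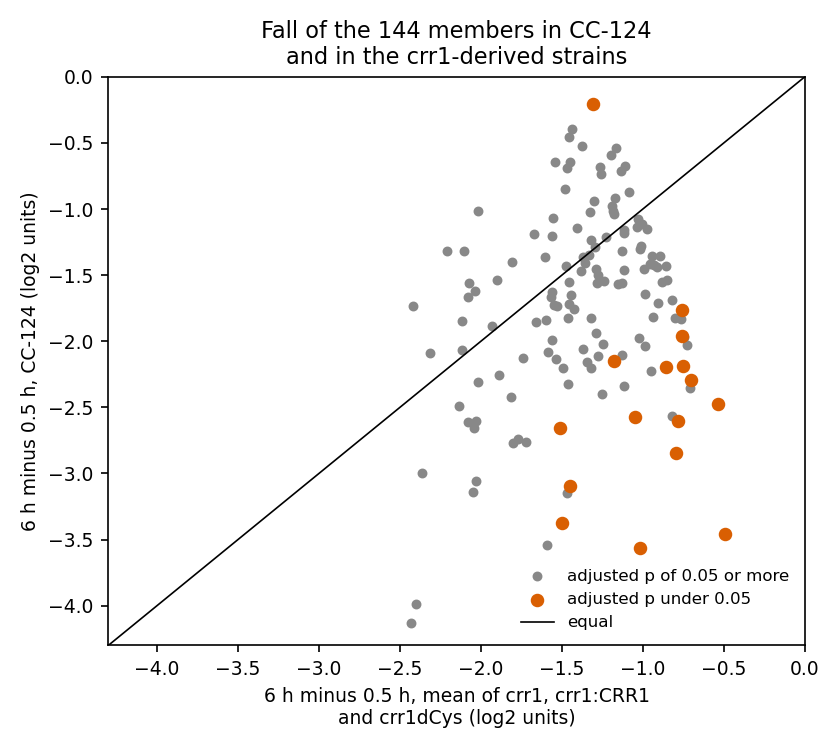
The 6 h minus 0.5 h difference of each of the 144 members in CC-124 (y axis) against the mean of crr1, crr1:CRR1 and crr1dCys (x axis), in log2 units, with orange points for a limma adjusted p under 0.05 and a line where both are equal. 100 members lie below the line, that is, they fell more steeply in CC-124, and 15 of the 16 orange points are among them.

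Cre07.g338450.t1.2 showed this difference with nearly equal levels before it. It had 76.9, 61.2, 62.3 and 91.3 RPKM in light oxic culture, 322, 334, 317 and 350.3 RPKM at 0.5 h, and 26.3, 156, 125 and 235 RPKM at 6 h. At 0.5 h the strains spanned 317 to 350.3 RPKM, and at 6 h CC-124 alone was below its light oxic level, with a difference in the fall of -2.55 log2 units (SE 0.30, limma adjusted p = 0.00392). Cre17.g723650.t1.1 had 60.4, 69.8, 59.2 and 67.4 RPKM in light oxic culture, 179, 215, 199 and 189.8 RPKM at 0.5 h, and 24.0, 139, 80.0 and 138 RPKM at 6 h. The first 2 stages were again alike in all strains, and the difference in the fall was -2.05 log2 units (SE 0.31, limma adjusted p = 0.0112). Cre18.g744750.t1.2, a lower transcript, had 8.69, 10.8, 9.86 and 11.1 RPKM in light oxic culture, 20.2, 26.1, 21.3 and 26.1 RPKM at 0.5 h, and 2.83, 17.6, 11.6 and 22.2 RPKM at 6 h. Its difference was -1.93 log2 units (SE 0.28, limma adjusted p = 0.00818).

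Cre12.g540500.t1.1 had 225, 247, 217 and 213 RPKM at 0.5 h and 20.9, 59.2, 67.7 and 125 RPKM at 6 h, a difference of -1.87 log2 units (SE 0.41, limma adjusted p = 0.0450). Cre10.g447800.t1.1 fell more steeply in CC-124, with a difference of -2.96 log2 units (SE 0.41, limma adjusted p = 0.00710), which rests on the same high 0.5 h level of CC-124 as its larger rise. The member with the less steep fall was Cre17.g716700.t1.2, whose levels are given above. In CC-124 it fell by 0.20 log2 units and in the others by 1.26 to 1.36, a difference of 1.1 log2 units (SE 0.19, limma adjusted p = 0.0194).

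For the size of the early rise, crr1, and separately crr1dCys, were set against the mean of CC-124 and crr1:CRR1, which hold full-length CRR1. The rule required a rise in crr1 and in crr1dCys, so a gene that did not rise there cannot be a member, and these rises helped to choose the members. Neither comparison called a member or any other model (0% of all models). At an unadjusted p under 0.05 from limma there were 3 members for crr1 (2.08%, against 2.66% of all models) and 2 for crr1dCys (1.39%, against 0.734%). The median difference over the members was -0.10 log2 units for crr1, against -0.15 over all models, but 0.11 against 0.02 with median-of-ratios scaling, where 48 instead of 86 members were below 0. It was 0.03 for crr1dCys, against -0.02 over all models. Single differences ranged from -1.37 in Cre07.g321800.t1.1 to 1.17 in Cre05.g240300.t1.2 for crr1, and from -1.85 in Cre10.g447800.t1.1 to 1.03 in Cre03.g200900.t1.2 for crr1dCys. In simulated data this test, with 2 residual degrees of freedom, recovered 28% of differences of 2 log2 units for crr1 and 22% for crr1dCys, and 0% of those of 1 log2 unit. The simulated noise was the residual spread of a fit of strain and stage, so it also held differences in response between strains. In that setting differences of 1 log2 unit were not recovered. Whether they could be detected in the measured data was not tested.

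The 6 h column of crr1:CRR1 in TS4 was not used by the rule and gave a look at the fall outside it. Against the TS4 column at 0.5 h, which the rule did use, 139 of the 144 members were lower (96.5%), as were 46.7% of all models tested. A fall of 1 log2 unit or more was found in 116 members (80.6%, against 18.8%). The median fall was -1.81 log2 units, against -1.26 in the TS1 columns of the same strain, where 142 members fell. It is 1 column without a replicate, it shares the 0.5 h value with the rule, and it differs from its TS1 repeat in 51 members by 1 log2 unit or more. This difference ran through the whole table, with a median absolute size of 0.70 log2 units in the members and 0.60 in all models tested.

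Within this column the members did not all follow the other columns. Cre06.g271200.t1.1 stood at 50.1 RPKM at 0.5 h and at 155 RPKM at 6 h, the largest of the 5 rises. The others that were not lower were Cre17.g716700.t1.2, Cre18.g744750.t1.2, Cre02.g094250.t1.1 and Cre13.g576150.t1.2, with differences of 0.07 to 0.50 log2 units. The deepest falls were those of Cre12.g541400.t1.1, from 156 to 1.36 RPKM, and of Cre09.g391650.t1.1, from 99.8 to 0.840 RPKM. Both of these had kept 6 h levels above light oxic culture in the columns that the rule used.

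**Figure D5:**
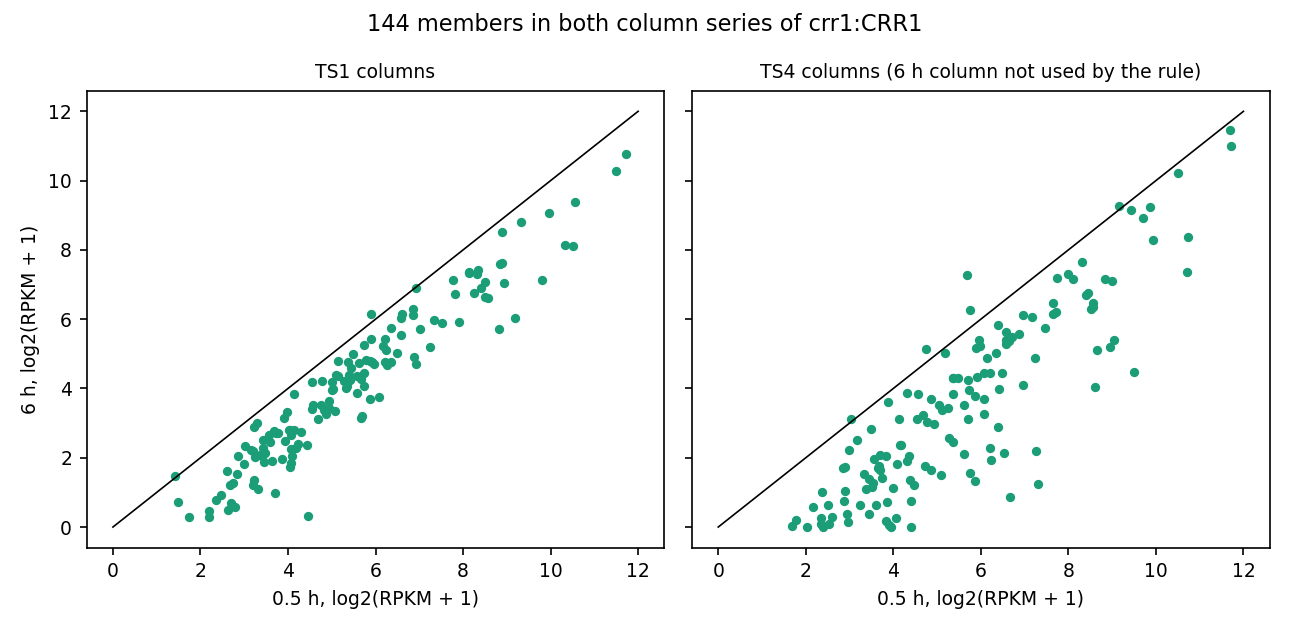
Level of the 144 members in crr1:CRR1 at 0.5 h (x axis) and 6 h (y axis) as log2(RPKM + 1), in the TS1 columns on the left and the TS4 columns on the right, with a line where both are equal. In TS4, where the 6 h column was not used by the rule, 139 members lie below the line and the points spread more widely than in TS1.

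Repeat columns of 1 sample also show how far the depth of the fall moved. In crr1dCys the median fall was -1.56 log2 units in TS1 and -1.22 in TS2, and the difference between 6 h and light oxic culture was below 0 in 92 members in TS1 and in 46 in TS2. The members were lower in TS1 than in TS2 at 6 h by a median of 0.36 log2 units, while all models tested differed by a median of 0.05 in the same direction. At 0.5 h the median difference of the members was 0.01. In crr1 the light oxic and 6 h columns gave 53 members below 0 in TS1 and 53 in TS2, with the same 0.5 h column in both. The median fall of CC-124, -1.68, comes from TS2, and the crr1dCys columns of TS2 gave the shallower of its pair.

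Members lay next to each other in the order of their identifiers more often than other models lay next to them. 23 of the 144 (16.0%) were direct neighbours of another member, and 221 of the 14162 other models tested (1.56%) were direct neighbours of a member. Such neighbours were also found in other sets, with differing backgrounds. Among other models with the early rise the share was 67 of 351 (19.1%, against 3.73% of the models outside that set), and among other models with the later fall 97 of 540 (18.0%, against 5.80%). Among the 147 models with a transient fall it was 12 (8.16%, against 1.64%). In RefSeq (assembly Chlamydomonas_reinhardtii_v5.5), 7 of the 12 neighbouring pairs had both models matched, and 6 of these were adjacent there. Whether neighbouring models shared reads was not tested.

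The members formed 10 pairs and 1 run of 3. Cre01.g056200.t1.2 and Cre01.g056250.t1.1 rose from 19.4 to 83.4 RPKM and from 69.6 to 475 RPKM, and both stood more than 1 log2 unit above light oxic culture at 6 h. Cre14.g630800.t1.2 and Cre14.g630850.t1.2 rose from 54.0 to 121 RPKM and from 19.5 to 40.3 RPKM, and both ended lower than they started. Other pairs differed in size. Cre09.g391700.t1.1, next to the member with the largest rise, rose by 1.84 log2 units and kept 0.28 at 6 h, and Cre06.g263350.t1.2, next to the member with the deepest fall, fell by 1.69. In the run of 3, Cre10.g447750.t1.2, Cre10.g447800.t1.1 and Cre10.g447850.t1.1, the last 2 had their highest 0.5 h level in CC-124, at 67.5 and 42.3 RPKM.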

How the data were processed

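The authors deposited 1 table of 17301 gene models in 20 columns, which belong to 12 samples. Reads were aligned with Bowtie, per the submitters' processing notes. The version, the build, the annotation and the way reads were counted (strand, several hits) were not given in the sources used here. Models that overlap or are near copies of each other therefore have uncertain values. The unit is not named in the header. The deposited values were read as RPKM from their steps. A step gave a model length that was whole to within 0.1 base in 99.7% of 905 low models. Trial depths gave 20.0% on average. The 905 were the 30.3% of low models whose values fell on whole steps, and the depth was picked by this share. The depths inferred this way, 12001000 to 18894000 reads, are the largest that fit the steps. Columns were matched to samples by name, those of crr1:CRR1 and crr1 by elimination, and 0 were left without a sample.

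From these, log2(RPKM + 1) was computed and repeat columns were averaged on that scale, leaving out the 6 h column of crr1:CRR1 in TS4. Printed RPKM levels are arithmetic means of the columns, so a level and a log2 difference need not convert into each other. A log2 difference understates the change of low transcripts. Tests covered the 14306 models whose mean reached 1 RPKM. Strain differences were fitted with limma 3.58.1 (R 4.3.3, trended empirical Bayes), with 6 residual degrees of freedom for the light oxic level of CC-124, 4 for its responses and 2 for crr1 and crr1dCys. p-values measure the spread between strains, and nothing in the labels says that samples were separate cultures. Recovery was checked on simulated data of 14306 models. Of differences of 2 log2 units, 70% were recovered for the CC-124 fall, 72% for its 0.5 h response and 94% for its light oxic level. Of those of 1 log2 unit, 4%, 14% and 50% were recovered. The data simulated for the light oxic test held no lasting differences between strains. In the measured data these enter its residual, so 94% and 50% may be too high.

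The members, the rule and the lists were chosen with earlier results of these data known. Named were the 10 largest rises, the 5 deepest falls, the 10 highest levels at 0.5 h, the 3 models nearest each side of each threshold, up to 5 called members per strain test, and the 3 largest and smallest differences between 6 h and light oxic culture. Members named outside this rule (neighbouring pairs, the extremes of the crr1 and crr1dCys differences, the TS4 column, and those 1 log2 unit or more above or below light oxic culture) were chosen after their values were seen. Classes by product name and lists by symbol were not analysed here, because the reference table holds neither. A RefSeq match under 80% makes a comparison of gene properties void, and none was made. Alternatives were another pseudocount (0.1 or 5), another filter on low values, the TS4 column kept, single series, other scalings, leaving out each strain and, added after seeing the data, choosing the models on the crr1-derived strains alone.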

Additional observations from a re-analysis of the deposited data

Results flagged for a closer look

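Single strains stood apart from the other 3 in 15 of 120 sets of 4 levels (by Dixon's criterion on the gap to the nearest of the others). Chance flags about 1 in 20 independent sets, but these are 40 members at 3 stages, and the sets of 1 member are not independent. The share over all models tested was not computed, so the count is not a result about the members. In 13 of the 15 the strain was CC-124. It was higher than the others at all 3 stages in Cre13.g572600.t1.1 (16.8, 76.7 and 29.3 RPKM in light oxic culture, at 0.5 h and at 6 h), Cre16.g659700.t1.1 (1474, 2786 and 1120 RPKM) and Cre18.g748700.t1.1 (5.01, 32.9 and 9.51 RPKM). At 0.5 h alone CC-124 stood apart in Cre01.g015950.t1.1 (110.0 RPKM), Cre10.g447800.t1.1 (67.5 RPKM) and Cre10.g447850.t1.1 (42.3 RPKM), and in light oxic culture alone in Cre13.g603500.t1.1 (141 RPKM). crr1:CRR1 stood apart in light oxic culture in Cre03.g207600.t1.1 (2.61 RPKM, below the others) and in Cre07.g321800.t1.1 (5.68 RPKM, above the others). The latter rests on the TS4 column, at 9.32 RPKM. The TS1 column of crr1:CRR1 stood at 2.04 RPKM, the same as CC-124. The sets are of the named members, which were partly named for a difference of CC-124.

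The 0.5 h response of CC-124 differed from that of the crr1-derived strains, by limma with an adjusted p under 0.05, in Cre10.g447800.t1.1 (2.30 log2 units), Cre02.g115508.t1.2 (1.51), Cre12.g561500.t1.1 (1.33), Cre01.g015950.t1.1 (1.07) and Cre03.g207600.t1.1 (-1.23). The fall from 0.5 h to 6 h differed most in Cre10.g447800.t1.1 (-2.96 log2 units), Cre07.g338450.t1.2 (-2.55), Cre17.g723650.t1.1 (-2.05), Cre18.g744750.t1.2 (-1.93) and Cre12.g540500.t1.1 (-1.87). Whether series or culture has a part in these differences cannot be told apart from the strain. The rule used the same responses, so these members are not an independent sample of such differences.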

How the results depend on the processing

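The number of members was 144, and with a pseudocount of 5 it was 68, all of them among the 144, with a median rise of 1.07 log2 units over the 144 (1.38 with a pseudocount of 1). A pseudocount of 0.1 gave 206, with all 144 among them. Leaving out each strain gave 124 to 162 members, and these held from 103 of the 144 (71.5%, without CC-124) to 137 (95.1%, without crr1). TS1 columns alone gave 128, with 97 of the 144 among them (67.4%). The number of members called for the 0.5 h response of CC-124 was 5, and it was 8 with a pseudocount of 5, 1 with no filter on low values, 0 with the TS4 column kept, 8 with TS2 columns alone and 3 with median-of-ratios scaling. For the fall of CC-124 it was 16, and 7 with no filter or with the TS4 column kept. For its light oxic level it was 29, and 17 with the TS4 column kept and 8 with TS2 columns alone. Leaving out each crr1-derived strain gave 13 to 27 members for the light oxic level, 0 to 3 for the 0.5 h response and 0 to 24 for the fall, with the lowest of each without crr1. Among the models chosen on the crr1-derived strains alone, an alternative added after seeing the data, the number called was 2 for the 0.5 h response, 8 for the fall and 25 for the light oxic level. With these settings and left-out strains, the number called over all models moved in the same direction as that of the members. The exception was the 0.5 h response without crr1:CRR1, where it was higher. The cause of these differences was not tested. The median difference between 6 h and light oxic culture was 0.05 log2 units and -0.05 with the TS4 column kept. The members' median crr1 difference at 0.5 h was -0.10 and 0.11 with median-of-ratios scaling. The other alternatives for these results stayed within 1.5 times the count or within the spread of the strains. Other medians near 0 also changed sign under some alternatives, over the members and over all models. The members' median light oxic difference of CC-124 was 0.04 log2 units and -0.02 with median-of-ratios scaling. Their median difference of CC-124 in the 0.5 h response was -0.004 and 0.008 with a pseudocount of 5. No paired analysis was possible because each group is 1 sample and its replicate number pairs nothing. The CC-124 tests could not be fitted without CC-124 or with TS1 alone, and the tests of crr1 and crr1dCys not without CC-124, without crr1:CRR1, without the strain itself or within TS1 or TS2 alone. Where a column is low, precision is set by reads. In the column with the lowest inferred depth, 1 RPKM in a model of 1 kilobase is about 12 reads. The inferred depths are the largest that fit the steps, so the true number of reads may be lower.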
